A study of Mus musculus with 2 samples.

Results

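RNA levels of 10 regulators of epithelial and mesenchymal identity were read from cultured mouse mammary cancer cells. The genes were chosen by name: the repressors of the SNAIL, TWIST and ZEB families (Snai1, Snai2, Twist1, Twist2, Zeb1 and Zeb2), the epithelial splicing factors Esrp1 and Esrp2, and the OVOL zinc finger factors Ovol1 and Ovol2. All 10 had a row among the 31017 genes of the count table. The cells were TUBO, a line derived from a mammary tumour of a BALB/c mouse carrying the rat Her2/neu transgene, so they descend from one tumour and stand for that tumour alone. They were untreated and grown flat on plastic in serum-containing medium. The labels give 1 group with 2 libraries and no second condition, and what can be reported is therefore each gene's level. Nothing in the labels states whether the 2 replicates came from different cultures, and their spread may be technical.

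Epithelial to mesenchymal transition is the change by which epithelial cells lose their junctions and gain motile traits. SNAIL and ZEB proteins are zinc finger repressors that bind E-box sequences, such as those at the E-cadherin gene Cdh1, and TWIST proteins are basic helix-loop-helix factors that act with E-protein partners. ESRP proteins are RNA-binding factors that direct epithelial exon choice, for example in Fgfr2 and Cd44, and OVOL proteins are repressors that hold down Zeb1 and other mesenchymal regulators. ZEB repressors and the microRNAs of the miR-200 family repress each other, and miR-205 also targets ZEB transcripts.

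The library totals were 35453278 and 34098259 counts. Levels are in CPM, which is each gene's count after scaling for library size with TMM factors. Where no read was counted, a fixed limit of 3 counts per library was used. This is a level of 0.0842 CPM in replicate 1 and 0.0885 CPM in replicate 2. The exact two-sided 95% Poisson interval for 0 counts ends higher, at 3.69 counts. Ratios bounded with the limit of 3 would be lower with that end. Genes that reached 1 CPM in each of the libraries are called detected. All 6 mammary epithelial markers (Krt18, Epcam, Krt7, Cdh1, Erbb2 and Krt8) were detected, with a summed level of 5110 and 4984 CPM. Erbb2 gave 678 and 695 CPM of it, and whether reads of the rat transgene add to that row was not tested. Krt18, Epcam, Cdh1 and Krt8 are also on the list of epithelial genes held down by the repressors. Of 10 fibroblast markers 2 were detected, Postn and Pdgfra, and the list summed to 20.1 and 19.8 CPM, with Pdgfrb, Col1a2, Col3a1, Dcn, Lum and Thy1 at 0. Of 9 leukocyte markers 2 were detected, Cd14 and Cd68, and the list summed to 122 and 124 CPM, with Ptprc, Adgre1 and Lyz2 at 0. Of 7 endothelial markers Flt1 alone was detected (51.1 ± 0.679 CPM), while Cdh5, Kdr and Emcn had no count. None of 7 myoepithelial markers reached 1 CPM.

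The microRNAs that target ZEB transcripts are shown because, among the members, the ZEB genes held most of their seed matches. The mature sequences are from RefSeq (GRCm38.p6), 5′ to 3′, with bases 2 to 8, the seed, in capitals. The first 2 share one seed, the next 3 share another, and miR-205-5p has its own.
mmu-miR-141-3p: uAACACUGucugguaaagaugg
mmu-miR-200a-3p: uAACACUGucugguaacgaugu
mmu-miR-200b-3p: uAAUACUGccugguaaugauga
mmu-miR-200c-3p: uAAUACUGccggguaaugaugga
mmu-miR-429-3p: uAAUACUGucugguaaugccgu
mmu-miR-205-5p: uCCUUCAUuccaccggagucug

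Exact matches to the seeds were counted in the longest 3′ untranslated region (3′UTR) annotated for each gene in GENCODE M21 (GRCm38), on the transcript strand. The letters searched were CAGTGTT for miR-141-3p and miR-200a-3p, CAGTATT for miR-200b-3p, miR-200c-3p and miR-429-3p, and ATGAAGG for miR-205-5p. The Zeb2 3′UTR of 4941 bases held 5 matches of CAGTATT and 4 of CAGTGTT. The Zeb1 3′UTR of 2401 bases held the same numbers, 5 and 4, and 1 match of ATGAAGG, which Zeb2 lacked. Among 885 protein-coding genes whose 3′UTR was as long as that of Zeb2 or longer, 47.1% held CAGTATT, and 0.452% held it at least 5 times, while 60.5% held CAGTGTT and 4.07% held that at least 4 times. Among 4688 genes with a 3′UTR at least as long as that of Zeb1, 0.128% held CAGTATT at least 5 times and 1.09% held CAGTGTT at least 4 times. Snai1 had 1 match of CAGTATT, and Snai2 had 1 of each miR-200 seed. Twist1, Twist2, Esrp1, Esrp2, Ovol1 and Ovol2 had no match of any of the 3 seeds. Absence of any single seed is common. Of 21123 protein-coding genes with a 3′UTR, 18% held CAGTGTT, 13.9% held CAGTATT and 12.4% held ATGAAGG. Among genes with a 3′UTR at least as long as that of Esrp1 (2059 bases), these shares were 40.4%, 30.1% and 26.9%. How often all 3 are absent together was not computed. A match is a description of sequence and not a measured site.

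The 5 CAGTATT matches of Zeb2 are printed because Zeb2 was the ZEB gene with counts. The match is in capitals, and the position of its first base is counted from 1 at the first base after the stop codon.
Zeb2, position 393: cgcactaccatacatCAGTATTtt
Zeb2, position 458: cgcactacagtgcatCAGTATTac
Zeb2, position 820: ttgaagcacccgtgtCAGTATTag
Zeb2, position 905: gttcattaattttgtCAGTATTac
Zeb2, position 1039: tcatactgtagtgtaCAGTATTat
Of the 9 miR-200 matches in Zeb2, 8 began between bases 209 and 1039 of the 3′UTR and 1, of CAGTGTT, began at base 4163. Mature microRNAs are not captured by this kind of library, and microRNA levels were not analysed here.

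**Figure D1:**
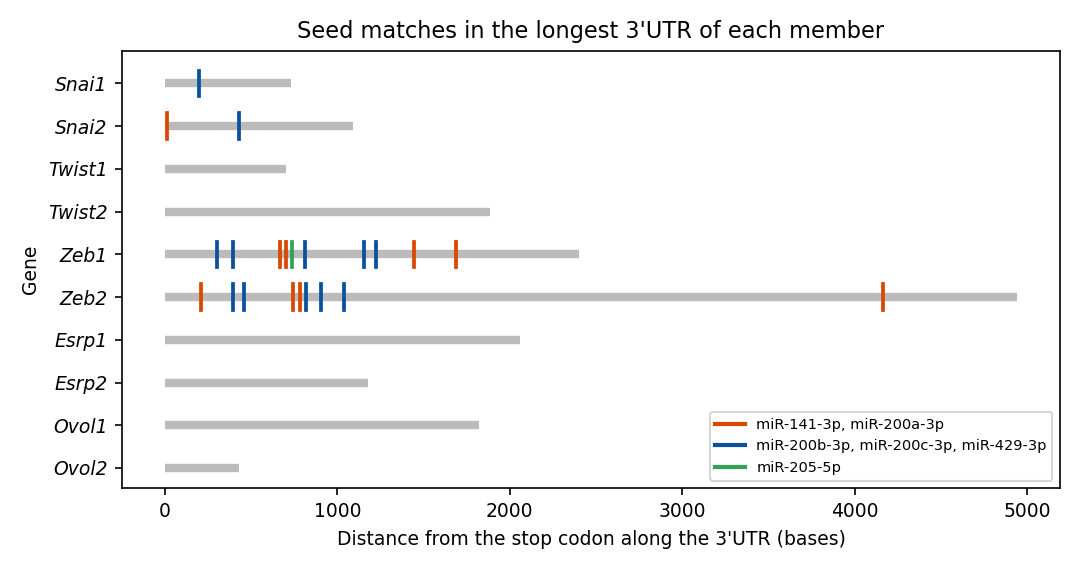
Matches of the 3 microRNA seeds (coloured ticks) along the longest annotated 3′UTR of each of the 10 genes (grey bars, horizontal axis in bases from the stop codon). Zeb1 and Zeb2 each carry 9 miR-200 matches, and the ESRP, OVOL and TWIST genes carry none.

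Of the SNAIL, TWIST and ZEB members, 1 gene of each pair had counts (Snai1, Twist1 and Zeb2) and the other had none, while both ESRP members and both OVOL members were detected. The pattern holds for these members and not for the whole SNAIL family, since Snai3, which is no member, had 139 and 126 counts. Detected members numbered 7 of 10, made up of 3 of 6 repressors and all 4 splicing and OVOL factors. Of all 31017 genes 37.7% were detected and 41.0% had no count, and of the protein-coding genes 50.5% and 31.7%. The members without a count were Snai2, Twist2 and Zeb1.

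Snai1, the zinc finger repressor of Cdh1, lies on chromosome 2 (167538195 to 167542814, GRCm38). It had 58 counts in replicate 1 (95% exact Poisson interval 44.0 to 75.0) and 75 in replicate 2 (59.0 to 94.0), or 1.63 and 2.21 CPM. This placed it at 1.92 ± 0.413 CPM (SD, n = 2), the lowest detected member in CPM. Snai2 (chromosome 16, 14705852 to 14709385), the SNAIL repressor known as Slug and typical of basal mammary cells, had 0 counts in both libraries. Per kilobase of exon, Snai1 was at least 27.6 times as high as Snai2, with Snai2 set to the limit of 3 counts per library.

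Twist1 (chromosome 12, 33957671 to 33959829) had 493 and 494 counts, 13.8 and 14.6 CPM. Twist2 (chromosome 1, 91801461 to 91848028) had none, so Twist1 was at least 321 ± 0.460 times as high per kilobase of merged exons. This bound was 255 with the longest transcript as length and 164.5 in CPM, not divided by length. Of the exonic bases of Twist2, 46.5% are also exonic in the antisense gene Gm29100, which had no count either, and 45.7% of its 50-base windows also occur in transcripts of other genes. The 53.5% of its exonic bases that overlap no exon of another gene gave no count.

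Zeb2 (chromosome 2, 44983632 to 45117395), a zinc finger and homeodomain repressor, had 511 and 505 counts, 14.3 and 14.9 CPM. Zeb1 (chromosome 18, 5591860 to 5775467), its paralog, had 0 counts in both libraries, although its 10266 exonic bases were more than those of any member except Zeb2. Zeb2 was at least 87.2 ± 0.728 times as high as Zeb1 per kilobase of merged exons, 108 times with the longest transcript as length and 169 times in CPM. The limit that 0 counts allow for Zeb1 was 0.00820 and 0.00862 RPKM (CPM per kilobase of exon). Of all 50-base windows in Zeb1 transcripts, 1.76% also occur in transcripts of other genes, and 1.93% of its exonic bases overlap exons of another gene. Over the same checks Snai2 had 0.963% of windows shared and no exonic overlap.

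The splicing factors were the most abundant members. Esrp1 (chromosome 4, 11331933 to 11386783) had 9912 and 9110 counts, 278 and 269 CPM. Esrp2 (chromosome 8, 106130319 to 106136974) had 2925 and 2827 counts, 82.1 and 83.4 CPM. Of its exonic bases, 219 are also exonic in Nfatc3 on the opposite strand, which had 5124 and 4755 counts. Per kilobase of exon Esrp1 stood at 43.4 ± 1.06 RPKM and Esrp2 at 19.1 ± 0.211 RPKM, a ratio of 2.33 in replicate 1 and 2.22 in replicate 2. The mean ratio was 3.03 with the longest transcript as length and 3.31 in CPM. Both libraries put Esrp1 above Esrp2 and their values did not overlap. Esrp1 ranked 912 and Esrp2 ranked 2558 by RPKM among 11582 detected genes with a length.

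The OVOL factors were of moderate level. Ovol1 (chromosome 19, 5549136 to 5560646) had 744 and 698 counts, 20.9 and 20.6 CPM. Ovol2 (chromosome 2, 144305175 to 144332146) had 449 and 410 counts, 12.6 and 12.1 CPM. Divided by length they came to 5.94 ± 0.0592 RPKM and 5.84 ± 0.170 RPKM, and their values overlapped between libraries. Their order depended on the length used, since Ovol2 was the higher at 7.98 ± 0.232 RPKM against 6.97 ± 0.0695 RPKM for Ovol1 when the longest transcript replaced all merged exons.

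**Figure D2:**
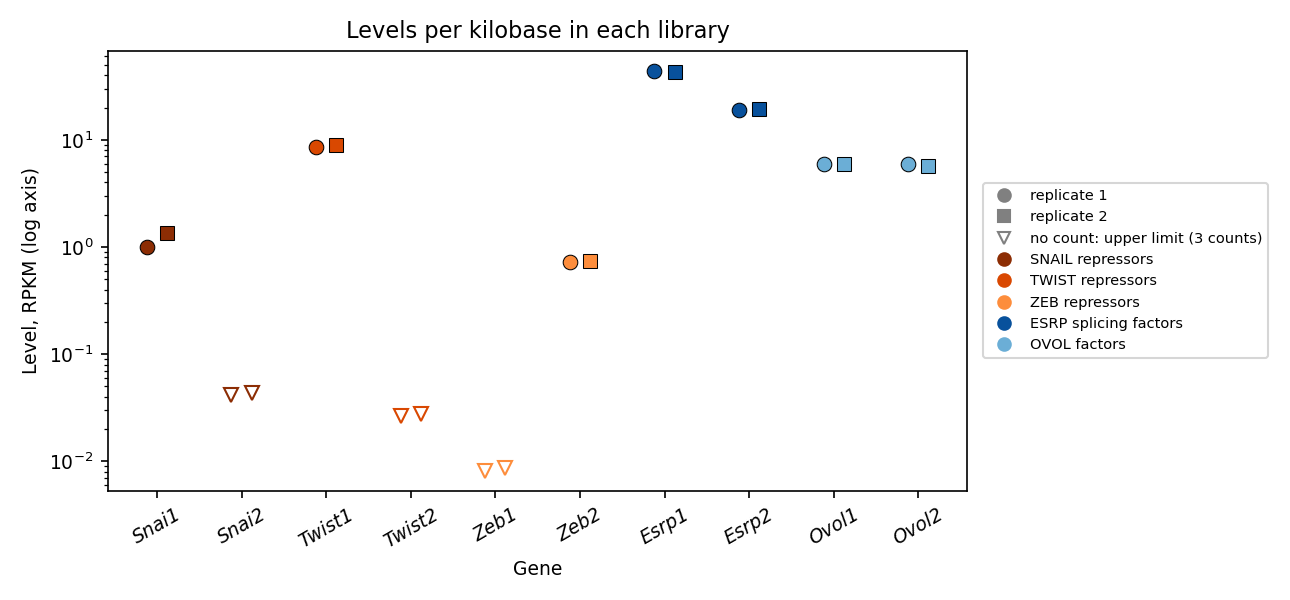
Level of each member in RPKM (log axis) in replicate 1 (circles) and replicate 2 (squares), coloured by family, with open triangles at the limit of 3 counts for genes without a count. Snai2, Twist2 and Zeb1 carry only triangles, between 0.00820 and 0.0438 RPKM, and Esrp1 is highest at 44.1 and 42.6 RPKM.

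In order of level per kilobase the detected members were Esrp1, Esrp2, Twist1, Ovol1, Ovol2, Snai1 and Zeb2. Neighbours in this order did not overlap between libraries, with the exception of Ovol1 and Ovol2. Twist1 was the highest repressor at 8.72 ± 0.319 RPKM, 1.47 ± 0.0683 times Ovol1. Twist1 and Zeb2 were close in CPM (14.2 ± 0.520 and 14.6 ± 0.392), but Zeb2 has 19942 exonic bases against 1628 for Twist1. Zeb2 therefore came to 0.733 ± 0.0196 RPKM, above 6.68% of the detected genes, and Twist1 above 54.8% of them. Snai1 stood at 1.18 ± 0.255 RPKM. With the longest transcript as length, Zeb2 came to 1.60 ± 0.0429 RPKM and stood above Snai1, so the order of these repressors depends on the gene model.

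Summed per kilobase, the 4 ESRP and OVOL genes exceeded the 6 repressors. The sums were 75.0 and 73.4 RPKM against 10.2 and 11.1 RPKM, a ratio of at least 6.94 ± 0.487 with genes at 0 set to their limit. Most of it came from the ESRP genes, whose sum was 63.0 and 61.8 RPKM, while the OVOL genes summed to 11.9 and 11.6 RPKM, near the repressors. Among the repressors Twist1 held most of the sum. The ESRP genes exceeded the ZEB genes at least 84.2 ± 3.41 times per kilobase of merged exons, 58.3 times with the longest transcript as length and 24.2 times in CPM, not divided by length. An exact sign test over 2 libraries has 0.5 as its smallest p, and these ratios are given without one.

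No member differed between the libraries by the exact binomial test with Benjamini-Hochberg adjustment over all genes kept. That test compares the 2 libraries against counting error alone. Of 13336 genes kept by an expression filter 8.13% were called, and of the 7 members kept 0 were called. At an unadjusted p under 0.05 there was 1, Esrp1, with a log2 ratio of replicate 2 to replicate 1 of -0.05 (95% exact interval -0.09 to -0.01, binomial p = 0.0170, adjusted p = 0.133). The call depended on scaling, since with total counts Esrp1 passed (log2 ratio -0.07, adjusted p = 0.0235 by the exact binomial test), and 9.71% of all genes kept were called. With a dispersion estimated from the same 2 libraries, edgeR's exact test called 0.142% of the genes kept and the DESeq2 Wald test called none, no member among them. With 1 library on each side these tests say nothing about whether the libraries agree. The largest ratio was that of Snai1, 0.44 (-0.07 to 0.96, adjusted p = 0.329 by the exact binomial test), so a difference of up to 1.95-fold between the libraries lies within its counting error. For the other 6 the intervals end at 1.20-fold or less.

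**Figure D3:**
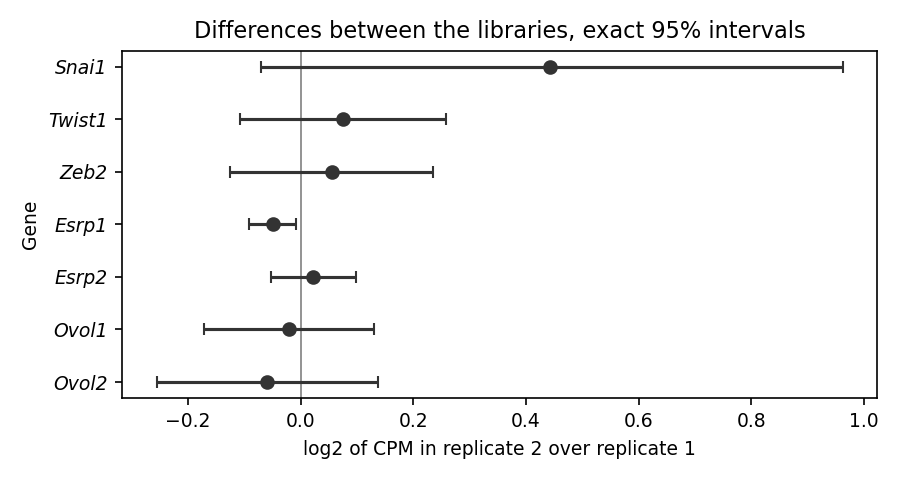
Log2 ratio of CPM in replicate 2 over replicate 1 (horizontal axis) for the 7 members with counts, with exact 95% intervals from counting error. Every interval but that of Esrp1 (-0.09 to -0.01) includes 0, and that of Snai1 (-0.07 to 0.96) is the widest.

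Relatives of the members were mostly low. Snai3, another SNAIL family gene, was at 3.81 ± 0.130 CPM (2.34 ± 0.0801 RPKM), above Snai1 in both libraries, Ovol3 had 9 counts in each library, and the neural SNAIL relatives Scrt1 and Scrt2 had none. Of 15 other transcription factor genes linked to the transition 8 were detected, led by Sox4 (117 ± 7.09 CPM), Foxc1 (111 ± 7.005 CPM) and Sox9 (73.7 ± 1.41 CPM), and 4 had no count, Prrx2 and Tbx3 among them. Per kilobase Twist1 stood below 4 of the 8 detected genes of that list and above 4. Snai1 and Zeb2 each stood above 1 of them, Foxq1.

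The partners of the TWIST proteins and the ID proteins that titrate them were all detected, 7 of 7. The E-protein genes Tcf12 (171 ± 0.217 CPM), Tcf3 (74.6 ± 2.34 CPM) and Tcf4 (28.9 ± 0.245 CPM) were present. The inhibitor gene Id2 was at 249 ± 1.27 CPM, Id1 at 100.1 ± 4.74 CPM, Id4 at 59.0 ± 0.241 CPM and Id3 at 2.50 ± 0.156 CPM. Per kilobase Id2 (102 ± 0.520 RPKM) and Id1 (86.3 ± 4.09 RPKM) stood above Twist1 in both libraries, with no overlap in values. The means of Tcf3 (18.5 RPKM), Id4 (15.3 RPKM) and Tcf12 (11.0 RPKM) were also above that of Twist1 (8.72 RPKM). Those of Id3 (1.40 RPKM) and Tcf4 (1.06 RPKM) were below it.

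Of 15 listed corepressor genes linked to SNAIL and ZEB repressors 14 were detected. The chromatin remodeller gene Smarca4 (246 ± 6.24 CPM), the ZEB-binding corepressor gene Ctbp1 (215 ± 3.14 CPM), the polycomb gene Suz12 (174 ± 1.76 CPM) and Rcor1 (140.2 ± 4.73 CPM) were highest. Hdac1 was the lowest detected (43.6 ± 2.53 CPM), and Wtip had 0 and 2 counts. All 13 genes of SNAI1 protein turnover were detected, led by the kinase gene Gsk3b, whose product marks SNAI1 for degradation (256 ± 4.73 CPM), and lowest for Btrc, its ubiquitin ligase adaptor (25.3 ± 0.249 CPM), and Lats2 (20.5 ± 0.968 CPM). All 9 genes of TGF-beta signalling, a known inducer of SNAIL and ZEB genes, were detected. The receptor gene Tgfbr2 (262 ± 3.63 CPM), the ligand gene Tgfb3 (177 ± 13.4 CPM) and Smad3 (175 ± 1.54 CPM) led, and Tgfb1 was lowest (2.02 ± 0.193 CPM).

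Among 18 other splicing regulators of the transition 16 were detected. Ptbp3 (396 ± 9.63 CPM), the exon repressor gene Ptbp1 (383 ± 17.1 CPM), Srsf1 (373 ± 3.35 CPM) and Mbnl2 (365 ± 13.7 CPM) were highest in CPM, and Rbfox1 and Rbfox3 had 0 and at most 1 count. Per kilobase Esrp1 exceeded 13 of the 18, and Esrp2 exceeded 10. The list median over all 18, undetected genes included, was 17.98 RPKM, below both ESRP genes. Among the 16 detected genes Esrp1 stood above 11 and below 5, and Esrp2 stood above 8 and below 8. All 13 transcripts known to be spliced by ESRP proteins were detected, from Cd44 (444 ± 17.3 CPM) down to Exoc7 (61.8 ± 1.57 CPM) and Fgfr2 (535 and 509 counts). Counts per gene do not show which exons were used.

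Of 22 epithelial genes that these repressors are known to hold down 21 were detected, with a median log2(CPM + 1) of 6.86 in each library. The median was 0.12 in both libraries over all genes in the table, and 1.18 and 1.22 over the protein-coding genes. Cdh1, the E-cadherin gene, was at 774 ± 31.2 CPM, while Muc1 (21.9 ± 0.390 CPM) was the lowest detected and Krt19 had 2 and 0 counts. Of 20 mesenchymal genes 3 were detected, the intermediate filament gene Vim, Fn1 and Mmp2, with a list median of 0.08 in both libraries. Of 14 epithelial transcription factor genes 12 were detected, led by Tfap2c (663 ± 17.7 CPM) and the ETS factor genes Ehf (401 ± 12.8 CPM) and Elf5 (275 ± 2.73 CPM). Ovol1 and Ovol2 each stood below 10 and above 2 of those 12 per kilobase. The fibroblast markers that were detected, Postn (11.5 ± 0.877 CPM) and Pdgfra (7.64 ± 1.08 CPM), were of the same order as Zeb2 and Twist1. Of the collagen genes among these markers, Col1a1 had 37 and 18 counts (1.04 and 0.531 CPM), and Col1a2 and Col3a1 had no count. Whether other cells had a part in these levels was not tested.

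**Figure D4:**
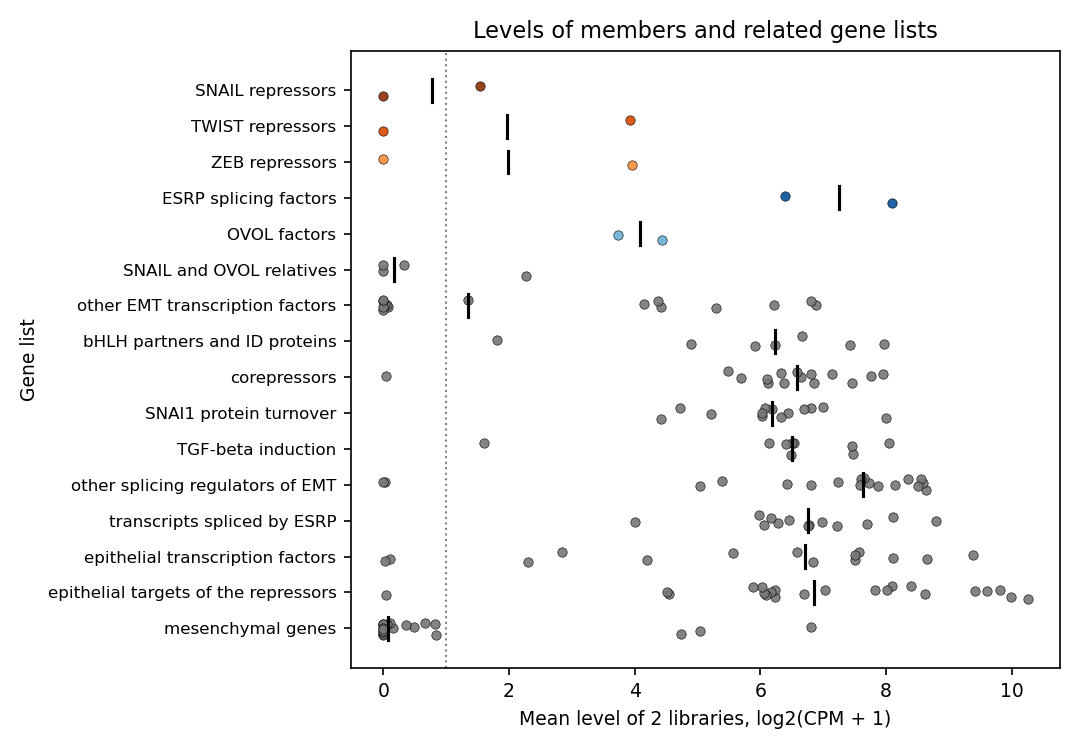
Mean level of 2 libraries, log2(CPM + 1), for each member (coloured points) and for the genes of the related lists (grey points), with a black bar at each list's median and a dotted line at 1 CPM. Both ESRP genes lie above 6, the detected repressors lie below 4, and 17 of 20 mesenchymal genes lie left of the line.

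Promoter sequences, 250 bases before to 50 bases after the start site, were matched for 5 of the 10 members in the RefSeq table (GRCm38.p6): Snai1, Twist1, Twist2, Zeb2 with 4 start sites, and Ovol2. The E-box bound by SNAIL and ZEB proteins, CACCTG on either strand (CAGGTG on the other), was found in 20.2% of 32851 promoters. Of the promoters matched for these 5 members that of Snai1 alone held it, once, beginning 126 bases before the start site. SNAI1 is known to repress its own gene through an E-box, and whether it did so in these cells was not tested. The Snai1 promoter is printed because it held the match (chr2:167537945-167538244, plus strand, E-box in capitals).
Snai1 promoter: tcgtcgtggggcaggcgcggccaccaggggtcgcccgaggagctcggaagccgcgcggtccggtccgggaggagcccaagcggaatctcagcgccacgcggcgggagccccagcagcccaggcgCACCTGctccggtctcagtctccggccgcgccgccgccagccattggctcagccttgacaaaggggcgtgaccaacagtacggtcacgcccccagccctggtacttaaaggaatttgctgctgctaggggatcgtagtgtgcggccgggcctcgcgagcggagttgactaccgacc
The promoter of Twist2, which had no count, held 25 CpG dinucleotides and 64.7% G and C, against 27 and 66.0% for Twist1, 25 and 65.7% for Ovol2, and 34 and 70.0% for Snai1. The 4 Zeb2 promoters held 8 to 19, and the median over all promoters was 7.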

How the data were processed

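RNA was measured in 2 libraries of untreated TUBO cells. Per the labels' protocols, the kit was TruSeq Stranded mRNA. The authors deposited raw counts per gene symbol. Per the submitters' processing notes, mm10, featureCounts and STAR 2.7.9a were among the builds and tools used, in roles that are not stated. The annotation, the use of strand and the treatment of multiply mapped reads are not stated either, so reads in overlapping exons (22.0% of exonic bases of Ovol1, 17.0% of Ovol2, 7.79% of Esrp2) may be lost, split or doubled. Each column was assigned by the library name in the labels.

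CPM was computed with edgeR 4.0.16 (R 4.3.3), using TMM factors of 1.005 and 0.9946, and divided by merged exonic length in GENCODE M21 (GRCm38), where 98.3% of genes had a single match, to give RPKM. Values are mean ± SD over both libraries. Genes kept by filterByExpr were tested between the libraries with a two-sided exact binomial test, adjusted by Benjamini-Hochberg with a threshold of 0.05. The test was first tried on simulated counts with counting error only, which cannot show how it behaves when libraries vary beyond that. Intervals were computed from the counts alone and cover counting error only. Reads carry no molecular identifiers, so copies of the same molecule may be counted more than once and the intervals may be too narrow. Members and lists were chosen with earlier results of these data known. Named genes were all members, every gene overlapping a member where it bears on a value, and the 4 highest and up to 2 lowest of each list (all of lists of up to 7 genes), of which some are not reported here. With 1 group, no likeness of pattern between genes could be computed. Of the 12 lists of pathway genes 11 had rows, and the miR-200 and miR-205 list was not analysed here. The list gene Qki was read from the row Qk. Protein sequences were not used here. The alternatives tried were size factors and a Wald test from DESeq2 1.42.0, total counts, edgeR's exact test, other detection minimums, pseudocounts, lengths and filters, and each library left out.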

Additional observations from a re-analysis of the deposited data

How the results depend on the processing

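The count of 7 detected members was the same with total counts, with DESeq2 size factors, in either library alone and at 0.5 CPM, and was 6 at 5 CPM. The last 2 minimums were chosen after seeing the data. The ratio of the ESRP and OVOL genes to the repressors was 6.94 per kilobase of exon, 9.42 with the longest transcript as length and 12.6 in CPM. The longest transcript of Zeb2 holds 9124 bases against 19942 in its merged exons. It was 6.59 without replicate 1 and 7.28 without replicate 2, and 6.99 with genes without a count taken as 0, also added later. Scaling by total counts or DESeq2 cancels out of the ratios. The number of members called between the libraries was 0, and 1 (Esrp1) with total counts. It was 0 with DESeq2 size factors and without the filter on low counts. It was also 0 with edgeR's exact test and the DESeq2 Wald test, which called 19 and 0 of 13336 genes with a dispersion from the same 2 libraries and are uninformative here. Of 150 genes on the pathway lists 117 were detected, and 112 to 120 under the alternatives. No library difference of a member changed direction. No paired analysis was possible because the libraries form 1 group and the replicate numbers pair nothing.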
